A study of Mus musculus with 20 samples.

Results

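The miR-200 family is a group of 5 epithelial microRNA hairpins: miR-200a, miR-200b, miR-200c, miR-141 and miR-429. Every entry of the miRNA class whose name began with one of these 5 names was taken, on either arm, which gave 10 of the 2127 small RNA features in the table. These are the 3p arms mmu-miR-200a-3p, mmu-miR-200b-3p, mmu-miR-200c-3p, mmu-miR-141-3p and mmu-miR-429-3p and the 5p arms of the same 5 hairpins, written here without the species prefix. Of the 10, 9 passed the filter on low counts and were tested, and miR-429-5p, with 0 to 14 counts in a library, did not.

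Small RNA came from skin biopsies of FVB/N mice, an inbred strain, in the chemical model of skin carcinogenesis: DMBA is a mutagen that initiates the lesions, and PMA is a phorbol ester that promotes their growth. The 4 groups have 5 libraries each: healthy skin that received the solvent acetone alone and, all from DMBA/PMA treatment, hyperplastic skin, papillomas and cutaneous squamous cell carcinomas (cSCC). Hyperplastic skin is thickened skin with no tumour, papillomas are benign growths, and cSCC is the malignant one. In a comparison with healthy skin the treatment and the lesion cannot be told apart. The labels give no age, nor whether any mouse gave more than 1 biopsy, so the p-values refer to the spread among these libraries, which may be partly technical. Mature miRNA counts were 2884177 to 4921719 in healthy skin, 3142228 to 6904298 in hyperplastic skin, 1060615 to 2370313 in papillomas and 1614803 to 2903657 in cSCCs.

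MicroRNAs bind messenger RNAs mainly through their seed, bases 2 to 8, and lower the output of those messages. The miR-200 family is known for repressing ZEB1 and ZEB2, transcription factors that shut off E-cadherin and other epithelial genes, while the ZEB proteins in turn repress transcription of the miR-200 genes. In skin the family is a mark of the epidermis and other epithelia rather than of dermal cells, and its loss has been linked to the mesenchymal change of carcinoma cells.

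The 3p arm is the guide strand of each hairpin, the strand that mainly enters the silencing complex. The 5 guides are printed first because the family divides in 2 ways, by seed and by place in the genome, and the levels below are set out along both. The sequences are from RefSeq (GRCm38.p6), 5′ to 3′, with the seed in capitals.
miR-200b-3p: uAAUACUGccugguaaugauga
miR-429-3p: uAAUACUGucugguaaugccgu
miR-200c-3p: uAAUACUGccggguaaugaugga
miR-200a-3p: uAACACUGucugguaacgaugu
miR-141-3p: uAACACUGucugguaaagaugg

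The first 3 guides share the seed AAUACUG and the other 2 share AACACUG, and no other entry among the 1679 mature mouse miRNAs of the RefSeq table holds either seed. The seeds differ at a single base, C4U from miR-200a-3p to miR-200b-3p, counted from 1 at the 5′ end. Outside the seed the closest guides are also few bases apart: miR-141-3p and miR-200a-3p differ by A17C and G22U, and miR-200b-3p and miR-200c-3p by U11G and A22G besides 1 extra base at the end of miR-200c-3p. How reads matching several miRNAs were counted is not given in the sources used here, so counts of these close pairs may hold some of each other's reads.

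The second division is by genome position, and it crosses the first. In the deposited mm9 coordinates the 6 arms of miR-429, miR-200a and miR-200b lay within 1829 bases of chromosome 4, from 155428024 to 155429852. The 4 arms of miR-141 and miR-200c lay within 472 bases of chromosome 6, from 124667934 to 124668405. Each cluster therefore holds guides of both seeds. In the GRCm38 annotation all 5 hairpins are on the minus strand. Those on chromosome 4 are within the gene Ttll10 and the non-coding transcript Gm13648, with an exon of Gm13648 over miR-429 and no annotated exon over miR-200a or miR-200b. Those on chromosome 6 are within the antisense transcript Gm15884, and miR-141 also overlaps an exon of Gm29008. The nearest protein-coding genes there are Phb2, on the plus strand, and Ptpn6, on the minus strand. Phb2 ends 963 bases from miR-141, and Ptpn6 ends 2316 bases from miR-200c.

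All 3 guides of the chromosome 4 cluster were lower in papillomas than in healthy skin, and 2 of them, miR-200a-3p and miR-200b-3p, in cSCCs. In a fit of only the 294 abundant miRNAs, of these falls only that of miR-200a-3p in cSCCs was still called. The guides of the chromosome 6 cluster did not pass the test in either direction in any comparison of the 5-library groups. Direct tests between the clusters, made on ratios of guides within a library, did not pass after adjustment in these groups. With 5 against 5 libraries these tests had little room to pass. Inside the cSCC group the chromosome 6 cluster was split: 2 carcinomas had very little of all 4 of its arms, and the other 3 had levels in or above the papilloma range. Hyperplastic skin differed from healthy skin for no member. Levels are CPM, the count of a miRNA relative to the library's mature miRNA counts, scaled between libraries with TMM factors, and calls are from edgeR's quasi-likelihood test with Benjamini-Hochberg adjustment over all 850 miRNAs tested, at an adjusted p under 0.05 (called edgeR adjusted p here).

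**Figure D1:**
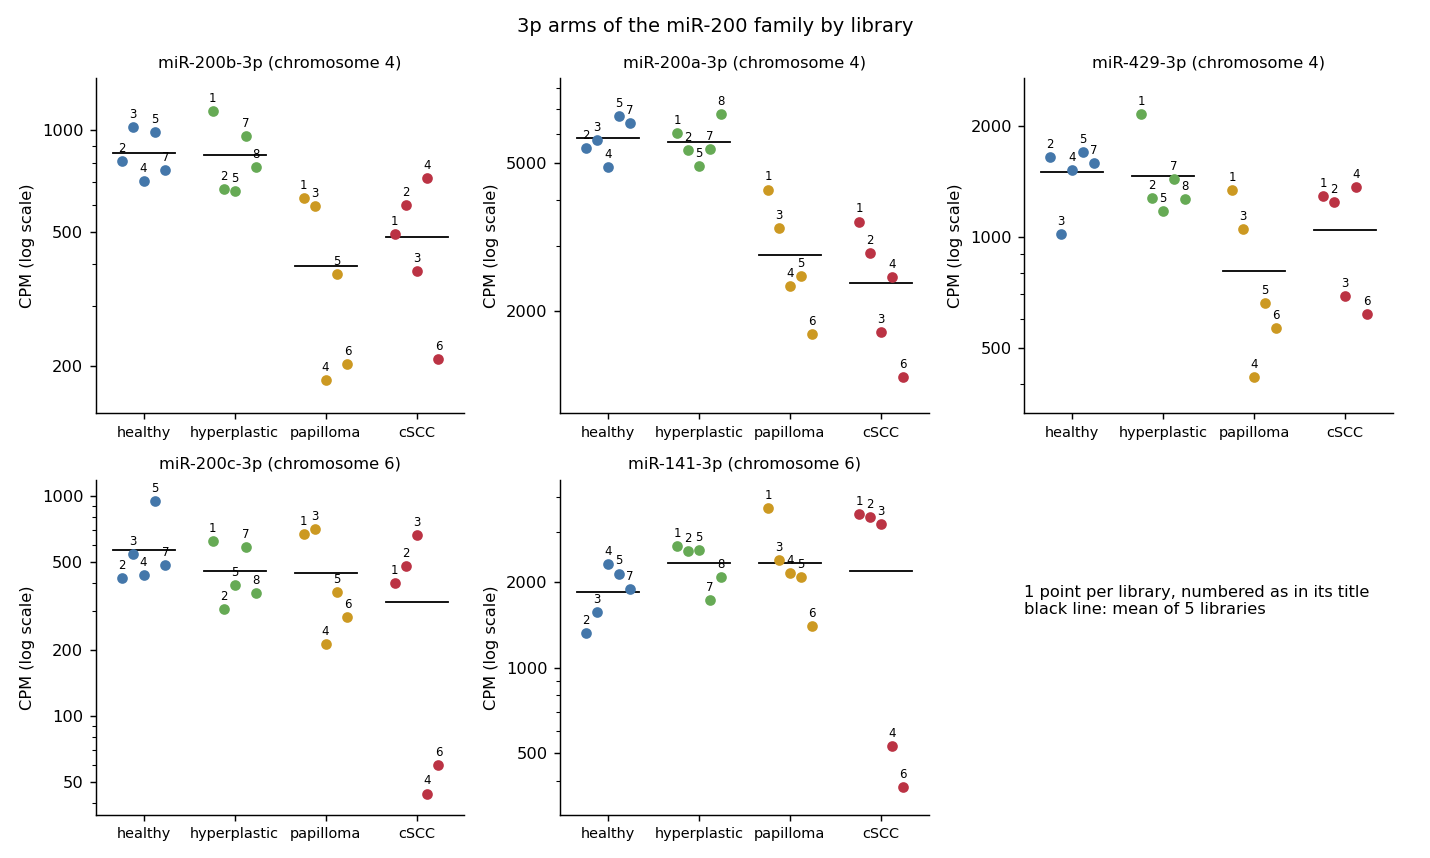
CPM of the 5 guide arms on log axes in each of the 20 libraries (numbered points), with the group mean as a line, by stage from healthy skin to cSCC. Every papilloma and cSCC library lies below every healthy and hyperplastic library for miR-200a-3p, and cSCC 4 and cSCC 6 lie far below the other cSCCs for miR-200c-3p and miR-141-3p only.

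The chromosome 4 cluster is described first. MiR-200a-3p, the most abundant member, had 5519, 5770, 4900, 6711 and 6442 CPM in healthy skin and 6056, 5421, 4920, 5455 and 6774 CPM in hyperplastic skin. It had 4256, 3360, 2348, 2494 and 1744 CPM in papillomas and 3491, 2878, 1759, 2479 and 1332 CPM in cSCCs. Each of the 10 tumours lay below each of the 10 libraries without a tumour. The mean was 2388 ± 863 CPM in cSCCs against 5868 ± 726 CPM in healthy skin (SD, n = 5 each), a log2 fold change of -1.30 ± 0.26 (SE, edgeR adjusted p = 0.000276). In papillomas it was 2840 ± 980 CPM, a log2 fold change of -1.05 ± 0.26 against healthy skin (edgeR adjusted p = 0.0028).

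Such separation was common in these data. Of all miRNAs tested, 16.7% had every cSCC below every healthy library, and 14.7% had every papilloma below every healthy library. MiR-200a-3p also fell against hyperplastic skin, by 1.26 ± 0.26 on the log2 scale in cSCCs (edgeR adjusted p = 0.000412) and by 1.01 ± 0.26 in papillomas (edgeR adjusted p = 0.00513). The share of all miRNAs wholly below hyperplastic skin was 15.6% for cSCCs and 12.2% for papillomas.

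MiR-200b-3p, which carries the other seed and sits next to miR-200a on chromosome 4, had 808.3, 1025, 707.3, 987.9 and 759.6 CPM in healthy skin and 1140, 669.8, 659.5, 962.2 and 775.4 CPM in hyperplastic skin. It had 628, 596, 180.7, 374.9 and 201.8 CPM in papillomas and 492.3, 599.7, 382.4, 720.3 and 209.7 CPM in cSCCs. All 5 papillomas were below all healthy and all hyperplastic libraries, and of the cSCCs only cSCC 4, at 720.3 CPM, was above the lowest healthy library. The log2 fold change against healthy skin was -1.11 ± 0.34 in papillomas (SE, edgeR adjusted p = 0.0107) and -0.83 ± 0.34 in cSCCs (edgeR adjusted p = 0.0424). The cSCC call was near the threshold and was lost without healthy 3, healthy 5, cSCC 3 or cSCC 6, where the edgeR adjusted p was 0.0675, 0.0882, 0.0692 and 0.11 in turn.

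MiR-429-3p, the outermost hairpin of the cluster, had 1651, 1017, 1522, 1703 and 1590 CPM in healthy skin and 2150, 1273, 1174, 1431 and 1264 CPM in hyperplastic skin. It had 1343, 1053, 416.6, 660.6 and 565.3 CPM in papillomas and 1290, 1242, 693.5, 1368 and 619.8 CPM in cSCCs. Papillomas 4, 5 and 6 were below every healthy library, and the groups overlapped. It fell in papillomas, by 0.89 ± 0.30 on the log2 scale (edgeR adjusted p = 0.0207). In cSCCs the log2 fold change was -0.52 ± 0.30 and did not pass (edgeR adjusted p = 0.15), while it passed with no low-count filter (-0.81, edgeR adjusted p = 0.0486) and in a fit of only the 10 libraries compared (-0.73, edgeR adjusted p = 0.0468). The papilloma call was lost without papilloma 4 or papilloma 6 (edgeR adjusted p = 0.0654 and 0.0585).

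These falls were measured relative to the other miRNAs, and how the libraries were scaled decided some of the calls. The TMM factors were 0.637 to 0.988 in healthy skin, 1 to 1.67 in papillomas and 0.82 to 1.27 in cSCCs. The family's median share of the mature miRNA counts, which uses no such factor, was 0.865%, 0.813% and 0.661% in the same order. In a fit of the 294 miRNAs with a mean of at least 50 CPM, scaled among themselves, log2 fold changes against healthy skin were higher by a median of 0.72 in cSCCs and 0.66 in papillomas. On that scale miR-200a-3p was still called in cSCCs, at a log2 fold change of -0.56 (edgeR adjusted p = 0.0278), and not in papillomas, at -0.41 (edgeR adjusted p = 0.112). MiR-200b-3p was at -0.12 in cSCCs (edgeR adjusted p = 0.747) and -0.52 in papillomas (edgeR adjusted p = 0.16). MiR-429-3p was at 0.20 in cSCCs, the opposite sign, and at -0.27 in papillomas (edgeR adjusted p = 0.534 and 0.427). The median log2 fold change of the 5 guides in the fit of 850 miRNAs was -0.78 in cSCCs and -0.89 in papillomas, against -0.59 and -0.53 for the 294 abundant miRNAs and 0.35 and 0.40 for all 850.

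**Figure D2:**
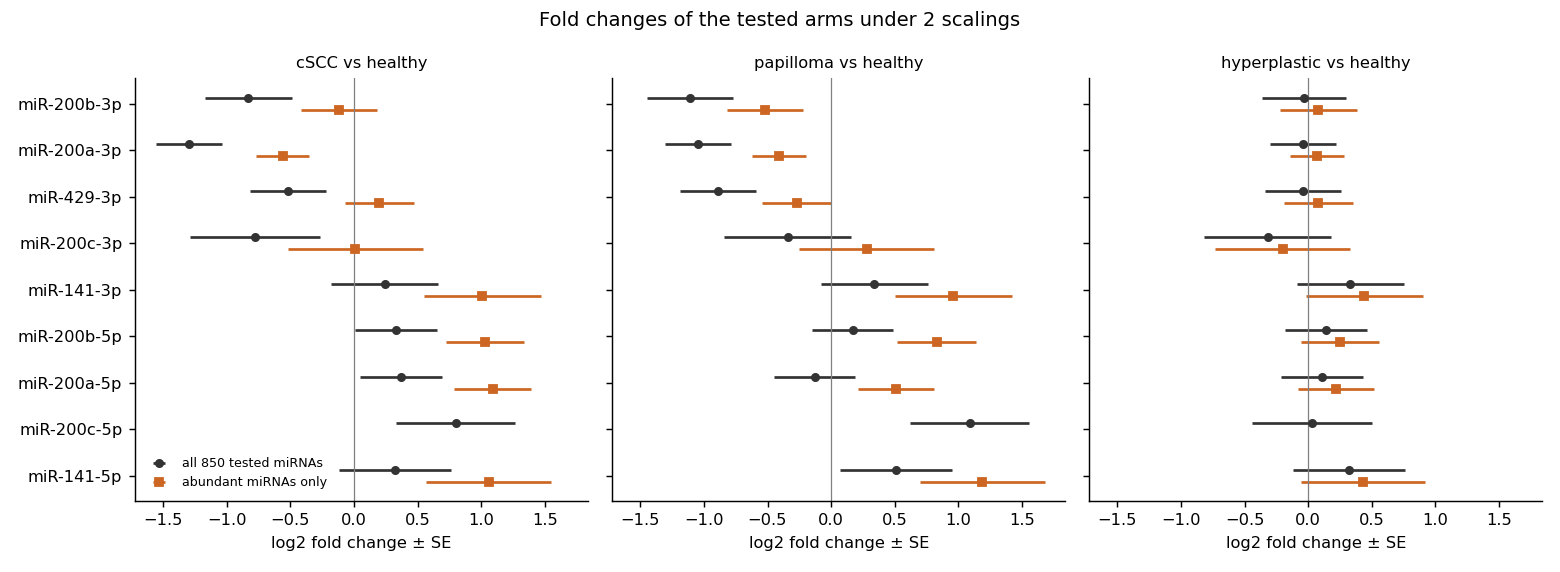
Log2 fold change (point) ± SE (bar) against healthy skin for each of the 9 tested arms in cSCCs, papillomas and hyperplastic skin, on the scale of all 850 miRNAs and on that of the 294 abundant miRNAs. The abundant scale, which lacks miR-200c-5p, sits higher in both tumour comparisons, and miR-200a-3p in cSCC is below 0 on both, at -1.30 and -0.56.

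The guides of the chromosome 6 cluster were not called, which alone does not show that they differ from those of chromosome 4. MiR-141-3p, which shares the seed of miR-200a-3p, had 1327, 1572, 2321, 2144 and 1892 CPM in healthy skin and 2688, 2572, 2598, 1734 and 2077 CPM in hyperplastic skin. It had 3654, 2392, 2145, 2090 and 1407 CPM in papillomas and 3465, 3397, 3192, 528.4 and 379.8 CPM in cSCCs 1, 2, 3, 4 and 6. Thus 3 cSCCs were above every healthy library and 2 were below every one. The mean was 2193 ± 1590 CPM in cSCCs against 1851 ± 406 CPM in healthy skin (SD, n = 5 each), and the log2 fold change of 0.24 ± 0.42 did not pass (SE, edgeR adjusted p = 0.652). In papillomas it was 0.34 ± 0.42 (edgeR adjusted p = 0.518).

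MiR-200c-3p, whose seed is that of miR-200b-3p, had 425.3, 541.9, 438.3, 944.8 and 487.3 CPM in healthy skin and 623, 305.8, 394.4, 583.8 and 362.7 CPM in hyperplastic skin. It had 668.5, 709.8, 211.1, 365.5 and 280.6 CPM in papillomas and 403.5, 479.1, 666.3, 44.29 and 59.64 CPM in cSCCs 1, 2, 3, 4 and 6. The same 2 cSCCs were again the lowest of all 20 libraries, with 99 and 122 counts. The log2 fold change against healthy skin was -0.78 ± 0.51 in cSCCs (SE, edgeR adjusted p = 0.2) and -0.34 ± 0.50 in papillomas (edgeR adjusted p = 0.581). On the abundant scale both had the opposite sign, at 0.01 and 0.28.

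The passenger arms of the cluster showed the same 2 libraries. MiR-141-5p was at 25.95 CPM in cSCC 4 and 35.68 CPM in cSCC 6, against 159.2 to 339 CPM in the other cSCCs and 98.65 to 161.2 CPM in healthy skin. MiR-200c-5p was at 0.8948 CPM (2 counts) in cSCC 4 and 4.888 CPM (10 counts) in cSCC 6, against 20.51 to 31.35 CPM in the other cSCCs and 7.593 to 13.07 CPM in healthy skin. All 4 arms from the chromosome 6 cluster were thus lower in these 2 carcinomas than in any other library.

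The chromosome 4 arms of these carcinomas did not share a drop of that size. In cSCC 4, miR-200b-3p and miR-429-3p were the highest of the cSCC group, at 720.3 and 1368 CPM, and miR-200a-3p, at 2479 CPM, was its middle value. In cSCC 6 the 3 guides from chromosome 4 were the lowest of the group, at 209.7, 619.8 and 1332 CPM, but by less than 2-fold from the next carcinoma. For miR-200b-3p and miR-429-3p the papillomas reached as low, at 180.7 and 416.6 CPM. For miR-200a-3p, cSCC 6 was the lowest of all 20 libraries, and papilloma 6 was next at 1744 CPM.

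Among the 294 abundant miRNAs, 7 had both libraries below the other 18, and 3 had them below by at least 2-fold: miR-200c-3p, miR-141-5p and miR-141-3p. The lowest of the other 18 libraries was 3.54, 2.6 and 2.51 times the higher of the 2 carcinomas for these 3. The other 4, named after their values were seen, were miR-204-5p at 1.26 times, miR-708-5p at 1.17, miR-33-3p at 1.04 and let-7g-3p at 1.02. The 2 libraries were singled out by their values, so no test applies to this contrast.

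**Figure D3:**
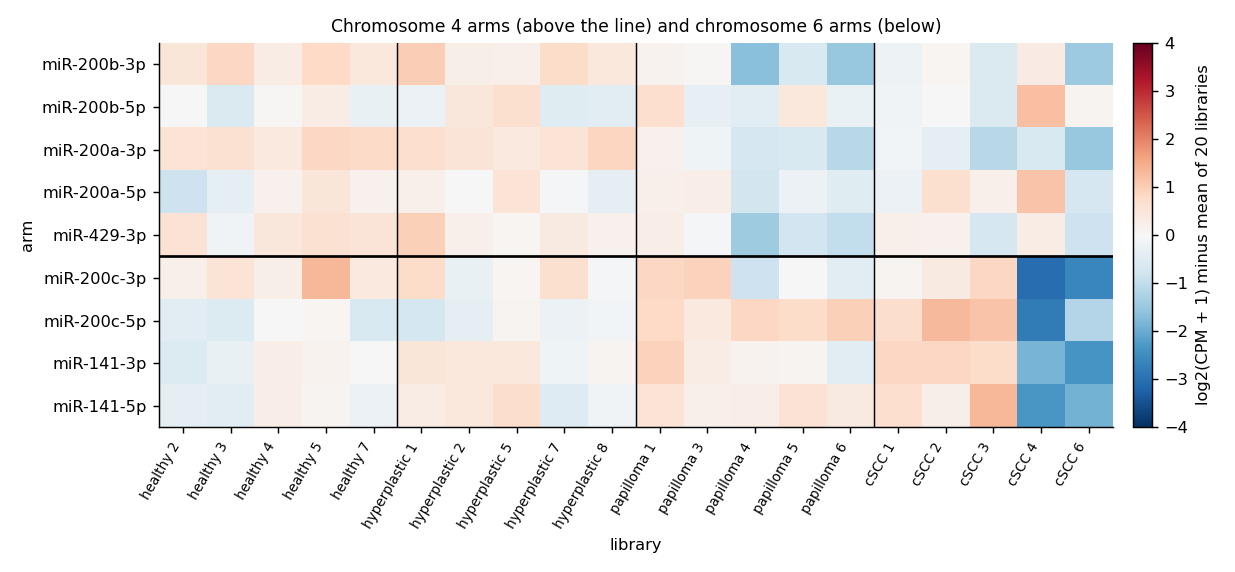
Log2 CPM of the 9 tested arms, each centred on its mean over the 20 libraries, with libraries in stage order and arms grouped by cluster. In cSCC 4 and cSCC 6 the 4 arms from chromosome 6 are far below their means, while the chromosome 4 arms of cSCC 4 are not.

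Summed cell type markers of these 2 libraries lay partly outside the range of the other cSCCs. The summed level of the keratinocyte miRNAs (miR-203 and miR-205, both arms, none of the 4 at 0) was 71300 CPM in cSCC 4 and 81500 CPM in cSCC 6, against 76840 to 138000 CPM in the other cSCCs and 146800 to 241100 CPM in healthy skin. The summed fibroblast and mesenchyme miRNAs (miR-199 and miR-214) were at 21600 and 26020 CPM, against 9538 to 24150 CPM in the other cSCCs. The leukocyte miRNAs (miR-142, miR-146a, miR-150, miR-155 and miR-223) were at 53380 and 109700 CPM, against 47770 to 79170 CPM. Thus cSCC 4 had the lowest keratinocyte sum, and cSCC 6 the highest mesenchyme and leukocyte sums, of the 5 cSCCs. Single arms followed the sums only in part. MiR-203-3p was the lowest of the cSCCs in cSCC 4, at 13840 CPM, but the highest in cSCC 6, at 28460 CPM. MiR-199a-3p in cSCC 6, at 3265 CPM, was below cSCC 3 and cSCC 4, at 3551 and 3514 CPM. The part of these cell types in the chromosome 6 result was not tested. In a bulk biopsy fewer epithelial cells and less of a miRNA per cell cannot be told apart.

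Without cSCC 4 and cSCC 6, an alternative added after the values were seen, 3 chromosome 6 arms were higher in the remaining 3 cSCCs than in healthy skin. The log2 fold change was 0.86 ± 0.27 for miR-141-3p, 0.93 ± 0.30 for miR-141-5p and 1.42 ± 0.30 for miR-200c-5p (SE, edgeR adjusted p = 0.0143, 0.0142 and 0.000618). MiR-200c-3p was at -0.14 (edgeR adjusted p = 0.774). MiR-200a-3p was still lower, at -1.11 ± 0.29 (edgeR adjusted p = 0.00359), and miR-200b-3p, at -0.80, was no longer called (edgeR adjusted p = 0.0718). Thus 4 of 9 were called, where 45.8% of all miRNAs were called and 25.1% called higher. Against hyperplastic skin 2 of 9 were called, miR-200a-3p at -1.08 and miR-200c-5p at 1.39 (edgeR adjusted p = 0.00507 and 0.000863), where 43.5% of all miRNAs were. Since the libraries left out were those with the lowest values, these p-values are descriptive. With all 5 cSCCs, none of the 3 chromosome 6 arms called here passed against healthy skin. There miR-200c-5p was at a log2 fold change of 0.80 ± 0.47 (SE, edgeR adjusted p = 0.16).

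In all, 2 of the 9 tested arms were called in cSCCs against healthy skin, both lower, where 47.5% of all 850 miRNAs were called and 21.3% were called lower. In papillomas against healthy skin 3 of 9 were called, all lower, against 44.7% of all miRNAs called and 20.7% called lower. For hyperplastic against healthy skin 0 of 9 were called, and the background was 0%. Log2 fold changes there were -0.32 for miR-200c-3p, -0.04 for miR-200a-3p and miR-429-3p, -0.03 for miR-200b-3p, 0.03 for miR-200c-5p, 0.11 for miR-200a-5p, 0.14 for miR-200b-5p, 0.32 for miR-141-5p and 0.33 for miR-141-3p. For cSCCs against papillomas 0 of 9 were called where 11.5% of all miRNAs were. Log2 fold changes there were -0.44 for miR-200c-3p, -0.29 for miR-200c-5p, -0.25 for miR-200a-3p, -0.19 for miR-141-5p, -0.09 for miR-141-3p, 0.16 for miR-200b-5p, 0.28 for miR-200b-3p, 0.37 for miR-429-3p and 0.51 for miR-200a-5p. With both directions together, the family's share called was at or below the share of all miRNAs in these 4 comparisons.

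Against hyperplastic skin, 1 of 9 was called in cSCCs, lower, where 44.9% of all miRNAs were called and 20.5% called lower. In papillomas 3 of 9, the chromosome 4 guides, were called lower, where 38.4% of all miRNAs were called and 17.1% called lower. These comparisons share their tumour libraries with those above. In papillomas miR-200b-3p was at -1.09 ± 0.34 and miR-429-3p at -0.85 ± 0.30 (SE, edgeR adjusted p = 0.0147 and 0.0289). The miR-429-3p call was lost without hyperplastic 1, papilloma 4, papilloma 5 or papilloma 6 (edgeR adjusted p = 0.0915, 0.0889, 0.064 and 0.0816 in turn). The other arms in papillomas were between -0.24 for miR-200a-5p and 1.06 for miR-200c-5p, with miR-200c-3p at -0.02, miR-141-3p at 0.00, miR-200b-5p at 0.03 and miR-141-5p at 0.19. In cSCCs miR-200b-3p was at -0.81 (edgeR adjusted p = 0.051), miR-429-3p at -0.48, miR-200c-3p at -0.46, miR-141-3p at -0.09, miR-141-5p at 0.00, miR-200b-5p at 0.19, miR-200a-5p at 0.26 and miR-200c-5p at 0.76. On the abundant scale 0 of 8 were called in papillomas, where 28.2% of the 294 miRNAs were. For cSCCs 3 of 8 were called on that scale, miR-200a-3p lower and the 5p arms of miR-200a and miR-200b higher, where 50.3% were. In the test across the 4 groups 3 of 9 passed, the same chromosome 4 guides, against 56% of all miRNAs.

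A ratio of members within a library does not depend on how libraries are scaled to each other. The chromosome 6 guides made up 18.0%, 21.3%, 27.9%, 24.7% and 21.3% of the counts of the 5 guides in healthy skin and 26.2%, 28.1%, 30.7%, 22.8% and 21.7% in hyperplastic skin. They made up 41.0%, 38.2%, 44.4%, 41.0% and 40.2% in papillomas and 42.3%, 45.1%, 57.6%, 11.1% and 16.9% in cSCCs 1, 2, 3, 4 and 6. All papillomas and 3 cSCCs were thus above every healthy and hyperplastic library, and the 2 remaining cSCCs were below every one. The 95% Wilson intervals, which cover counting error only, were 56.9% to 58.4% for cSCC 3, the highest, and 10.6% to 11.7% for cSCC 4, the lowest.

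By seed the shares of healthy skin, hyperplastic skin and papillomas overlapped. Guides with the seed AAUACUG held 25.4% to 29.6% of the 5 guides' counts in healthy skin, 21.3% to 30.9% in hyperplastic skin and 15.3% to 29.1% in papillomas. In cSCCs they held 23.9%, 27.0%, 26.0%, 41.5% and 34.2%, and the last 2 values, of cSCC 4 and cSCC 6, were above all other libraries.

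Single pairs of guides across the clusters were read for each seed. The log2 ratio of miR-141-3p to miR-200a-3p, which share the seed AACACUG, averaged -0.28 ± 0.13 in papillomas against -1.68 ± 0.37 in healthy skin (SD, n = 5 each), a difference of 1.40. The log2 ratio of miR-200c-3p to miR-200b-3p, which share AAUACUG, averaged 0.20 ± 0.19 in papillomas against -0.65 ± 0.35 in healthy skin, a difference of 0.85. In both ratios all 5 papillomas were above all 5 healthy libraries, for the second by a narrow margin, -0.04 in papilloma 5 against -0.06 in healthy 5. Each had p = 0.00794 in the exact two-sided permutation test, the smallest that 5 against 5 libraries allow, and 0.0635 after Benjamini-Hochberg adjustment over the 16 ratio tests made, which does not pass. At that smallest p, these 2 tests could pass only if other tests had p-values about as small. Full separation in these 2 alone could not pass, so the failure does not show that the clusters changed alike.

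In cSCCs the same ratios were widely spread. The log2 ratio of miR-200c-3p to miR-200b-3p was -0.29, -0.32, 0.80, -4.02 and -1.81 in cSCCs 1, 2, 3, 4 and 6, and its difference from healthy skin was -0.48 (exact permutation p = 0.69, adjusted p = 0.737). That of miR-141-3p to miR-200a-3p averaged -0.59 ± 1.35 in cSCCs against -1.68 ± 0.37 in healthy skin, a difference of 1.09 (exact permutation p = 0.151, adjusted p = 0.242). Without cSCC 4 and cSCC 6 the difference of the first ratio had the opposite sign, 0.71.

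Ratios within a cluster pair guides of different seeds. The log2 ratio of miR-141-3p to miR-200c-3p averaged 2.88 ± 0.49 in cSCCs against 1.74 ± 0.46 in healthy skin, a difference of 1.14 (exact permutation p = 0.0159, adjusted p = 0.0847). It ran from 2.26 to 3.57 over all 5 cSCCs, cSCC 4 and cSCC 6 included, although both of its members were low there. It was also above healthy skin on average in papillomas, by 0.73 (exact permutation p = 0.0556, adjusted p = 0.178), and in hyperplastic skin, by 0.65 (exact permutation p = 0.0794, adjusted p = 0.181), and cSCCs differed from papillomas by 0.41 (exact permutation p = 0.262, adjusted p = 0.349). The log2 ratio of miR-200a-3p to miR-200b-3p averaged 2.35 ± 0.41 in cSCCs against 2.78 ± 0.21 in healthy skin, a difference of -0.43 (exact permutation p = 0.0714, adjusted p = 0.181). In papillomas it averaged 2.96 ± 0.47, a difference of 0.18 (exact permutation p = 0.587, adjusted p = 0.671). None of the 16 tests passed after adjustment.

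**Figure D4:**
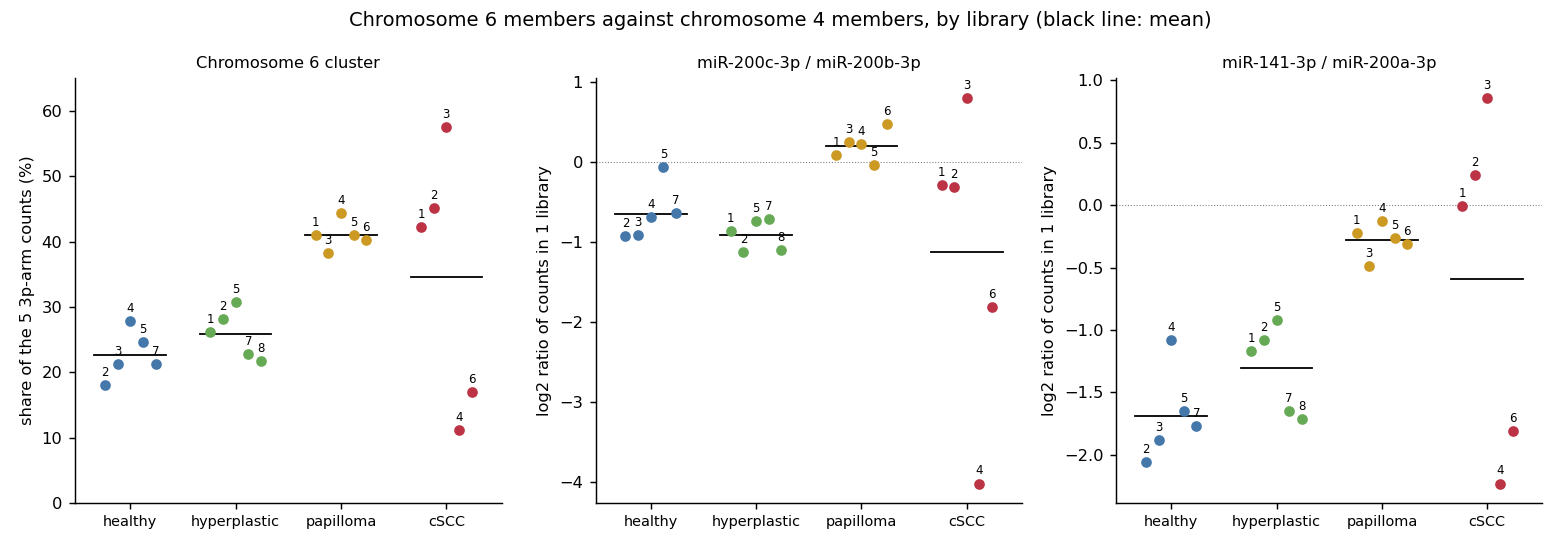
Share of the chromosome 6 guides in the counts of the 5 guides (percent) and the within-library log2 ratios of both same-seed pairs, by stage, with 1 numbered point per library and the group mean as a line. The papillomas lie above all healthy libraries in each panel, and cSCC 4 and cSCC 6 lie at the bottom of the cSCC group.

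The patterns over the 20 libraries were compared between members as well. Likeness was measured as the root mean square difference of log2 CPM after each miRNA was centred on its own mean, among 293 other abundant miRNAs, and it is a description only, since all share libraries and scaling. The nearest of miR-200b-3p was miR-429-3p and the reverse, at 0.33. The nearest of miR-200c-3p was miR-141-3p, at 0.62, and miR-200c-3p ranked 2 for miR-141-3p. For miR-200a-3p, its cluster neighbours miR-200b-3p and miR-429-3p ranked 13 and 23, while miR-141-3p, which has its seed, ranked 175 and miR-200c-3p ranked 193. Ranks are not symmetric: miR-200a-3p ranked 29 for miR-141-3p and 9 for miR-200c-3p.

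Outside the family, the 3 nearest to miR-200a-3p were miR-30e-5p at 0.27, miR-30a-5p at 0.28 and miR-186-5p at 0.29. Those of miR-200b-3p were miR-30a-5p at 0.40, let-7c-2-3p at 0.47 and miR-30e-5p at 0.47. Those of miR-429-3p were miR-148a-3p at 0.41, and miR-103-3p and miR-130a-3p at 0.43. The chromosome 6 guides had no outside miRNA that near: for miR-141-3p they were miR-92a-3p at 0.65, miR-19b-3p at 0.68 and miR-708-5p at 0.69. For miR-200c-3p they were miR-708-5p at 0.74, let-7c-2-3p at 0.81 and miR-92b-3p at 0.83.

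The 5p arms are mostly degraded as passenger strands, but each has a seed of its own. They are printed so that their seeds can be set beside those of the guides.
miR-200b-5p: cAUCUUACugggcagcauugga
miR-200a-5p: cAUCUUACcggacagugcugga
miR-200c-5p: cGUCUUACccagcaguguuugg
miR-141-5p: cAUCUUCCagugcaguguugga
miR-429-5p: gUCUUACCagacaugguuaga

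The 5p arms of miR-200a and miR-200b share a seed, and those of miR-141 and miR-200c each differ from it by a base, C7A from miR-141-5p to miR-200a-5p and A2G from miR-200a-5p to miR-200c-5p. On the scale of all 850 miRNAs, no 5p arm was called in any comparison of the fit of all 20 libraries. MiR-200c-5p had 21.9, 16.32, 22.38, 21.25 and 24.38 CPM in papillomas against 8.758, 8.096, 12.29, 13.07 and 7.593 CPM in healthy skin. All papillomas were above all healthy libraries, as for 12.9% of all miRNAs, and also above all hyperplastic libraries, as for 9.65%. The log2 fold change of 1.09 ± 0.47 did not pass (SE, edgeR adjusted p = 0.0636), and it passed without cSCC 4 (edgeR adjusted p = 0.0147) or cSCC 6 (edgeR adjusted p = 0.0478), libraries that enter only through the shared spread. In fits of only the 2 groups compared it was called in papillomas against healthy skin (1.09, edgeR adjusted p = 0.00722) and against hyperplastic skin (1.08, edgeR adjusted p = 0.0092).

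MiR-200b-5p ranged from 104.2 to 358.8 CPM in cSCCs and from 105.3 to 193.9 CPM in healthy skin, with a log2 fold change of 0.33 ± 0.32 (SE, edgeR adjusted p = 0.404). MiR-200a-5p ranged from 42.04 to 152.1 CPM in cSCCs and from 37.61 to 94.39 CPM in healthy skin, with a log2 fold change of 0.37 ± 0.32 (edgeR adjusted p = 0.346). The highest cSCC value of both was in cSCC 4. On the abundant scale both were called higher in cSCCs, at 1.03 and 1.09 (edgeR adjusted p = 0.00746 and 0.00449), and miR-200b-5p also in papillomas, at 0.83 (edgeR adjusted p = 0.0312). There 62.6% of the 294 miRNAs were called in cSCCs, 36.4% higher, and 51.4% in papillomas, 30.6% higher. MiR-141-5p was at 0.32 ± 0.44 in cSCCs (edgeR adjusted p = 0.561) and 0.51 ± 0.44 in papillomas (edgeR adjusted p = 0.349). In papillomas miR-200a-5p was at -0.13 ± 0.32 (edgeR adjusted p = 0.744) and miR-200b-5p at 0.17 ± 0.32 (edgeR adjusted p = 0.665).

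The balance of the arms within a hairpin is also free of scaling. It did not overlap healthy skin for miR-200a in both tumour groups, by a narrow margin, and for miR-200b in cSCCs. The 5p arm held 1.63% to 5.78% of miR-200a counts in cSCCs and 1.68% to 2.69% in papillomas, against 0.677% to 1.55% in healthy skin, so that neither tumour group overlapped healthy skin. For miR-200b it held 21.1% to 44.6% in cSCCs, against 9.31% to 18.5% in healthy skin, again without overlap, and 17.2% to 39.4% in papillomas, which overlapped. Hyperplastic skin, at 0.773% to 2.0% for miR-200a and 10.4% to 26.9% for miR-200b, overlapped both tumour groups. For miR-429, with its few 5p counts, the share was 0.0647% to 0.38% in cSCCs and 0% to 0.796% in papillomas, against 0.0156% to 0.294% in healthy skin, with overlap. Among the 136 hairpins with less 5p than 3p arm, the 5p share was wholly above healthy skin in 5.88% for cSCCs and 8.09% for papillomas.

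In the chromosome 6 cluster the 5p shares overlapped between groups. For miR-141 the share was 4.48% to 9.6% in cSCCs and 5.11% to 10.9% in papillomas, against 5.71% to 7.15% in healthy skin. For miR-200c it was 1.98% to 7.58% in cSCCs and 2.25% to 9.58% in papillomas, against 1.36% to 2.73% in healthy skin. The medians were 4.84%, 5.5% and 1.53% in the same order, and 2.91% in hyperplastic skin. The lowest cSCC share was that of cSCC 4, which had 2 counts of the 5p arm. The next lowest, in cSCC 3, was 4.08%, above all healthy libraries. The arm ratio was not tested with a p-value.

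**Figure D5:**
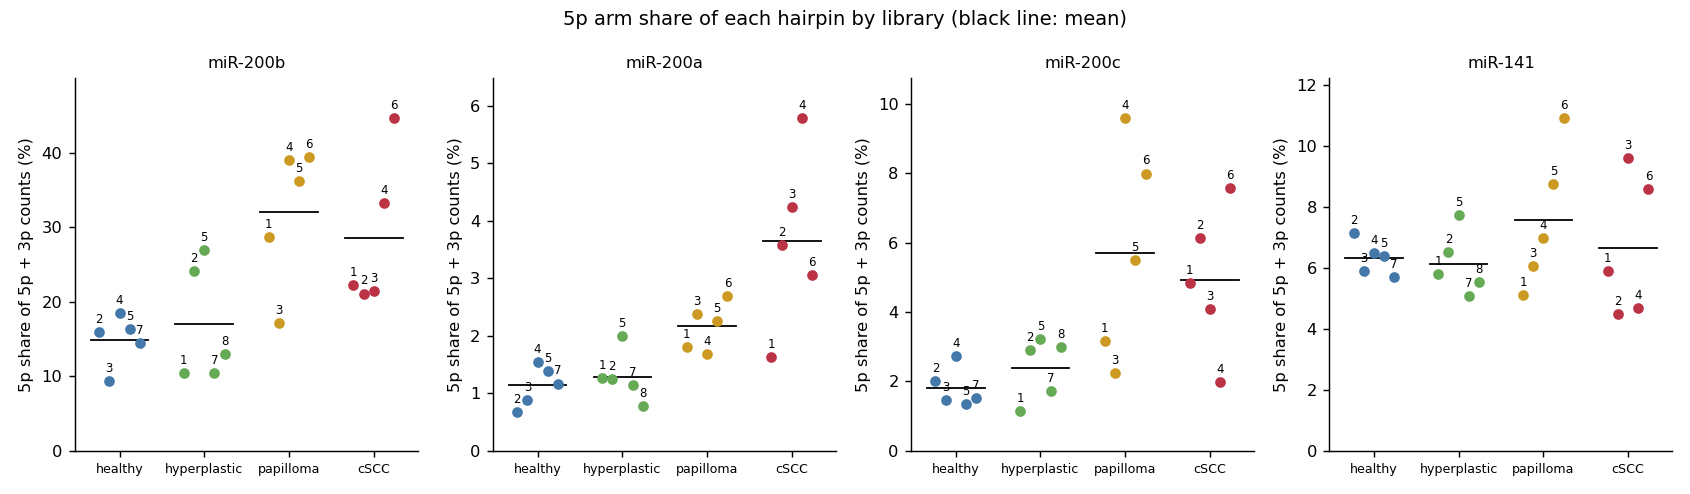
Share of the 5p arm in the counts of both arms (percent) for 4 hairpins, by stage, with 1 numbered point per library and the group mean as a line. For miR-200a every papilloma and cSCC lies above every healthy library, while for miR-141 the groups overlap.

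Other miRNAs of the ZEB and SNAIL circuits were read from a list of 9: miR-205-5p, miR-192-5p and miR-215-5p, which target ZEB messages, miR-203-3p and miR-183-5p, which ZEB1 represses in human cells, miR-30a-5p and miR-34a-5p, miR-34b-5p and miR-34c-5p, which target SNAI1. In cSCCs against healthy skin 4 of the 9 fell and 2 rose, where 47.5% of all miRNAs were called, with a median log2 fold change of 0.10 against 0.35 for all miRNAs. The falls were miR-203-3p at -1.83 ± 0.26, miR-30a-5p at -1.45, miR-192-5p at -0.92 and miR-205-5p at -0.69 ± 0.24, and the rises were miR-34b-5p at 2.20 and miR-34c-5p at 2.08. On the abundant scale the balance was the other way, with 2 of 8 lower and 4 higher, where 62.6% were called. There miR-192-5p, at -0.17, and miR-205-5p, at 0.04, were no longer called (edgeR adjusted p = 0.632 and 0.865), and miR-183-5p, at 1.32, and miR-34a-5p, at 0.80, were higher.

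In papillomas 2 of the 9 fell, miR-30a-5p and miR-192-5p, and none rose, where 44.7% of all miRNAs were called, at a median of -0.24 against 0.40. On the abundant scale 1 of 8 was lower, miR-30a-5p at -0.74, and 3 were higher, miR-34a-5p at 0.98, miR-34b-5p at 1.26 and miR-34c-5p at 0.92, where 51.4% were called. Of the list, miR-30a-5p was thus the one that fell in both tumour groups on both scales.

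Keratinocyte arms were read beside the family. In papillomas, where the chromosome 4 guides fell on the scale of 850 miRNAs, 0 of the 4 keratinocyte arms were called, against 44.7% of all miRNAs. There miR-203-3p was at a log2 fold change of -0.24 and miR-205-5p at -0.36 (edgeR adjusted p = 0.432 and 0.223). In cSCCs 3 of 4 were lower, where 47.5% of all miRNAs were called and 21.3% called lower. On the abundant scale miR-205-3p was higher in papillomas, at 0.88 (edgeR adjusted p = 0.0147), and in cSCCs, at 1.23 (edgeR adjusted p = 0.00101), where both miR-203 arms were lower and miR-205-5p was not called. The summed keratinocyte level was 104000 to 201300 CPM in papillomas and 71300 to 138000 CPM in cSCCs, against 146800 to 241100 CPM in healthy skin.

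Marker miRNAs of other cell types differed in the same comparisons. All 4 smooth muscle arms (miR-143 and miR-145) and the 2 endothelial arms (miR-126) were lower in both tumour groups than in healthy skin. On the abundant scale the 3 smooth muscle arms kept there were lower in both, while of the 2 endothelial arms only miR-126-3p was, in papillomas, at -1.11. The striated muscle miRNAs summed to 2261 to 9874 CPM in papillomas and 1709 to 4015 CPM in cSCCs, against 22250 to 83010 CPM in healthy skin, with 7 of 10 tested arms lower in each tumour group and 2, miR-499-3p and miR-499-5p, higher. The fibroblast and mesenchyme miRNAs summed to 18670 to 28840 CPM in papillomas and 9538 to 26020 CPM in cSCCs, against 43670 to 78800 CPM in healthy skin. Their 4 miR-199 arms were lower in both tumour groups, and both miR-214 arms were not called, with miR-214-3p higher in cSCCs on the abundant scale, at 0.61 (edgeR adjusted p = 0.0201). The leukocyte miRNAs summed to 15170 to 60790 CPM in papillomas and 47770 to 109700 CPM in cSCCs, against 19090 to 36220 CPM in healthy skin. In cSCCs 1 of their 8 tested arms was higher, miR-223-3p at 1.89, and 2 were lower, miR-150-5p at -2.15 and miR-146a-5p at -1.83. In papillomas 0 were higher and 3 lower. On the abundant scale 2 of 5 were higher and 2 lower in cSCCs, and 1 was higher and 0 lower in papillomas. Of all 850 miRNAs 47.5% were called in cSCCs and 44.7% in papillomas. Of the 294 abundant miRNAs 62.6% and 51.4% were called. The part of these changes in the family's results was not tested.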

How the data were processed

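The authors deposited a table of whole-number read counts per small RNA feature, not normalized, from 20 libraries, with mm9 as the genome build per the submitters' processing notes. The extraction and library kits (Qiagen miRNeasy, NEBNext for SOLiD) and size selection on acrylamide gels are per the labels' protocols. For the aligner, the counter and reads matching several miRNAs, the method is not given in the sources used here. No feature totals under 21 counts, so rarer ones may have been removed earlier.

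Counts of 1137 mature miRNAs were filtered by group (filterByExpr at defaults, which left 850), scaled by TMM factors (0.637 to 1.67) and fitted in 1 model of 4 groups with edgeR 4.0.16 (quasi-likelihood F test, two-sided, Benjamini-Hochberg, threshold 0.05; R 4.3.3). SEs were derived from the F statistic. Within-library log2 ratios of counts used a pseudocount of 0.5 and exact permutation tests over all 252 splits. Alternatives were DESeq2 size factors, DESeq2 1.42.0, no low-count filter, miRNAs of at least 50 CPM on average scaled alone, the replicate number as a block, only the 2 groups compared, a pseudocount of 1, medians, and leaving out each library, with the same 850 miRNAs kept; leaving out cSCC 4 and cSCC 6 was added later. The fits were tested on simulated data. Every tested member was named in each comparison, with the 3 miRNAs nearest to each guide in pattern and some of the called list members, several of these after their values were seen. The members, lists and tests were chosen with earlier results of these data known. Same-numbered libraries did not deviate together as a set (17 pairs, median correlation 0.02, highest 0.42, with 7 over 0.1), so the numbers were not used as pairs. Libraries of other numbers gave a median of 0 and a highest of 0.57 over 133 pairs, with 39 over 0.1. Whether single pairs were related was not tested.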

Additional observations from a re-analysis of the deposited data

Results flagged for a closer look

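In 56 sets of 5 libraries (members and ratios in each group), 4 had a library whose gap to its nearest neighbour was more than 0.71 of the whole range, Dixon's 95% critical value; chance alone gives such a gap in about 5% of sets. MiR-200b-5p was at 358.8 CPM in cSCC 4, against 104.2 to 169.1 CPM in the other cSCCs. MiR-200c-3p was at 944.8 CPM in healthy 5, against 425.3 to 541.9 CPM in the other healthy libraries. MiR-429-3p was at 1017 CPM in healthy 3, against 1522 to 1703 CPM in the other healthy libraries, and at 2150 CPM in hyperplastic 1, against 1174 to 1431 CPM in the other hyperplastic libraries. The low chromosome 6 arms of cSCC 4 and cSCC 6 do not appear here, because a pair of low libraries leaves no single one apart.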

How the results depend on the processing

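The fall of miR-200a-3p in cSCCs against healthy skin was called under every alternative run, and ranged from -1.52 to -1.15 without each library in turn. Depth limits the 5p arms of miR-200c and miR-429, and close pairs may share reads. The cause of the changes below was not tested.

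The arms tested numbered 9, except for 10 with no low-count filter and 8 among abundant miRNAs. In cSCCs against healthy skin the number called was 2, and 3 with no low-count filter or only the 2 groups compared. It was 3 (2 higher, 1 lower) among abundant miRNAs, and 1 with the replicate block. It was 4 (3 higher, 1 lower) without cSCC 4 and cSCC 6, and 1 to 3 without each library in turn. In papillomas against healthy skin it was 3, 1, higher, among abundant miRNAs only, 4 (1 higher) with only the 2 groups compared, and 2 to 4 without each library. In cSCCs against hyperplastic skin it was 1, 2 with DESeq2 size factors, no low-count filter or DESeq2, 3 (2 higher) among abundant miRNAs, 2 (1 higher) without cSCC 4 and cSCC 6, and 1 to 3 without each library. In papillomas against hyperplastic skin it was 3, 0 among abundant miRNAs or with the replicate block, 4 (1 higher) with only the 2 groups compared, and 2 to 4 without each library. Across the 4 groups it was 3, 1 with the replicate block, and 2 to 4 without each library. Hyperplastic against healthy skin and cSCCs against papillomas gave 0 under every alternative, DESeq2 included, and 0 at an unadjusted p under 0.05 in edgeR. Of all abundant miRNAs, 62.6% were called in cSCCs and 51.4% in papillomas against healthy skin, and 50.3% and 28.2% against hyperplastic skin. Without cSCC 4 and cSCC 6, 45.8% of all miRNAs were called in cSCCs against healthy skin and 43.5% against hyperplastic skin. The share for the other alternatives is not given here.

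Log2 fold changes changed sign as follows, all of arms not called in the fit of 850. With DESeq2 size factors and with DESeq2, miR-200c-5p was at -0.01 in hyperplastic against healthy skin, and in papillomas against hyperplastic skin miR-141-3p was at -0.10 and miR-200b-5p at -0.05. With no low-count filter, miR-141-3p was at -0.04 in cSCCs and -0.03 in papillomas, and miR-200b-5p at -0.19 in papillomas, against healthy skin. There miR-200a-3p and miR-200b-3p were at 0.01 in hyperplastic skin. Against hyperplastic skin, miR-200b-5p was at -0.11 and miR-200a-5p at -0.04 in cSCCs, and miR-141-3p at -0.40, miR-200b-5p at -0.36 and miR-141-5p at -0.21 in papillomas. Among abundant miRNAs against healthy skin, miR-429-3p was at 0.20 and miR-200c-3p at 0.01 in cSCCs, miR-200c-3p at 0.28 and miR-200a-5p at 0.51 in papillomas, and miR-200a-3p at 0.07, miR-429-3p at 0.08 and miR-200b-3p at 0.08 in hyperplastic skin. Against hyperplastic skin, miR-141-3p was at 0.56, miR-429-3p at 0.12, miR-200c-3p at 0.21 and miR-141-5p at 0.63 in cSCCs, and miR-200c-3p at 0.48 and miR-200a-5p at 0.29 in papillomas. MiR-141-3p was at 0.04 in cSCCs against papillomas. With the replicate block, miR-200a-5p was at 0.07 in papillomas and miR-200c-5p at -0.13 in hyperplastic skin against healthy skin, and miR-200c-3p at 0.29 in papillomas against hyperplastic skin. With only the 2 groups compared, miR-141-3p was at 0.02 and miR-141-5p at 0.10 in cSCCs against hyperplastic skin.

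Without cSCC 4 and cSCC 6, miR-200b-5p was at -0.13 in cSCCs against healthy skin. Against papillomas the values were 0.52 for miR-141-3p, 0.21 for miR-200c-3p, -0.30 for miR-200b-5p, 0.43 for miR-141-5p and 0.33 for miR-200c-5p. Against hyperplastic skin they were 0.52 for miR-141-3p, 0.19 for miR-200c-3p, -0.27 for miR-200b-5p and 0.61 for miR-141-5p.

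Without each library in turn, cSCCs against healthy skin ranged from -0.01 to 0.52 for miR-141-3p, -0.19 to 0.59 for miR-141-5p and -0.04 to 0.47 for miR-200b-5p. Against hyperplastic skin they ranged from -0.21 to 0.18 for miR-141-3p, -0.38 to 0.27 for miR-141-5p, -0.03 to 0.45 for miR-200a-5p and -0.18 to 0.43 for miR-200b-5p. Against papillomas they ranged from -0.23 to 0.28 for miR-141-3p, -0.53 to 0.09 for miR-141-5p, -0.38 to 0.09 for miR-200a-3p, -0.22 to 0.48 for miR-200b-5p and -0.48 to 0.01 for miR-200c-5p. Papillomas against healthy skin ranged from -0.06 to 0.47 for miR-141-3p and -0.20 to 0.28 for miR-200b-5p. Against hyperplastic skin they ranged from -0.26 to 0.14 for miR-141-3p, -0.21 to 0.22 for miR-200b-5p and -0.28 to 0.16 for miR-200c-3p. Hyperplastic against healthy skin ranged from -0.25 to 0.01 for miR-200a-3p, -0.15 to 0.19 for miR-200a-5p, -0.25 to 0.05 for miR-200b-3p, -0.09 to 0.21 for miR-200b-5p, -0.17 to 0.13 for miR-200c-5p and -0.27 to 0.03 for miR-429-3p.

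Of the ratios, miR-200c-3p to miR-200b-3p in cSCCs against healthy skin was at 0.37 with medians, 0.71 without cSCC 4 and cSCC 6, and -0.96 to 0.24 without each library. That of miR-141-3p to miR-200a-3p in cSCCs against papillomas was at 0.24, 0.64 and -0.67 to 0.10 in the same order. That of miR-200a-3p to miR-200b-3p was at -0.01 with medians in papillomas against healthy skin, -0.01 to 0.29 without each library, and -0.07 to 0.11 in hyperplastic against healthy skin. That of miR-200c-3p to miR-200b-3p in cSCCs against papillomas ranged from -1.81 to -0.61, and passed without cSCC 3.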
